A study of Mus musculus with 8 samples.

Results

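The SoxF and ETS transcription factors of endothelium were described as a set of 9 genes, Sox7, Sox17, Sox18, Erg, Fli1, Ets1, Ets2, Elk3 and Etv6, taken by gene symbol from a table of 24015 genes. All 9 passed the filter on low counts, and 13908 genes were tested in all. RNA was sequenced from sorted cells of the aorta-gonad-mesonephros region with the vitelline and umbilical arteries (AGM+VU) of E11.5 mouse embryos. There were 8 libraries, each made from 100 cells, with 2 libraries in each of 4 groups. The groups were clusters and endothelium, each from wild type and from Sl/Sl embryos. The clusters (hematopoietic cluster cells budding from the arterial wall) were gated as Ter119- VE-Cadherin+ Kit+, and the endothelium as Ter119- VE-Cadherin+ Kit- CD41- CD45-. Sl/Sl embryos carry on both alleles a Steel deletion that takes in Kitl, the gene of Kit ligand, so every cell of the embryo lacks the gene and not the endothelium alone. The mice were on a C57BL/6 background. Embryos were combined by genotype into small pools, and the 2 libraries of a group may share sources of variation that the labels do not give, so p-values measure the spread between these libraries. Counts per library ran from 8933236 to 13428214.

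SoxF factors (Sox7, Sox17 and Sox18) bind DNA through an HMG box and act partly in place of each other in arterial and lymphatic endothelium, and Sox17 also has a known part in the formation of blood from arterial endothelium. ETS factors bind a GGAA core through a winged helix domain, and that core is found in the enhancers of most endothelial genes. Erg and Fli1 are close relatives that serve both endothelium and blood stem cells. Ets1 and Ets2 are activators downstream of Ras and MAP kinase signaling, whereas Elk3 represses its targets until it is phosphorylated, and Etv6 is a repressor needed by blood stem cells and by the vessels of the yolk sac.

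In the deposited mm9 coordinates, Sox7 was on chromosome 14 from 64562543 to 64569569, Sox17 on chromosome 1 from 4481009 to 4487435, and Sox18 on chromosome 2 from 181404542 to 181406345. The ETS genes included neighboring pairs. Fli1 (chromosome 9, 32229793 to 32348953) and Ets1 (32503627 to 32565405) lay 154.7 kb apart, and Erg (chromosome 16, 95581811 to 95751972) and Ets2 (95924014 to 95942656) lay 172.0 kb apart. No other gene of the table lay between the members of either pair, and the members of each pair were on opposite strands. Elk3 was on chromosome 10 from 92710161 to 92773904 and Etv6 on chromosome 6 from 133985725 to 134220165. No exon of a member overlapped an exon of another gene in the table, so reads of an overlapping gene do not enter these counts, but the handling of reads that map to several places is not given in the sources used here.

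RefSeq promoter windows, in the GRCm38.p6 build, matched 4 of the 9 members, and Sox7, Sox17, Sox18, Fli1 and Ets1 were not matched. The windows of Elk3, Ets2 and Etv6 are shown because these are the matched members called between the cell types, and each covers 250 bases upstream of the start on the strand of the gene. Capitals mark the ETS core GGAA on either strand, written as TTCC where it lies on the other strand.
Elk3: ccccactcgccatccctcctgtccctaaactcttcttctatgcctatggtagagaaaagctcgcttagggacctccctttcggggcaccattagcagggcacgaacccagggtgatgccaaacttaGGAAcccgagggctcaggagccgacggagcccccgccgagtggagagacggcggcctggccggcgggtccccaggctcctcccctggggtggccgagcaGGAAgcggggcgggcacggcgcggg
Ets2: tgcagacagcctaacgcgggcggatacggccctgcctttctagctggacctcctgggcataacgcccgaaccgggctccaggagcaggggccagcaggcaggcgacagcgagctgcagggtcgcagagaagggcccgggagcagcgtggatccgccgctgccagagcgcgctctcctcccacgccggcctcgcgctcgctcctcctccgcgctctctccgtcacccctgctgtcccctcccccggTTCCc
Etv6: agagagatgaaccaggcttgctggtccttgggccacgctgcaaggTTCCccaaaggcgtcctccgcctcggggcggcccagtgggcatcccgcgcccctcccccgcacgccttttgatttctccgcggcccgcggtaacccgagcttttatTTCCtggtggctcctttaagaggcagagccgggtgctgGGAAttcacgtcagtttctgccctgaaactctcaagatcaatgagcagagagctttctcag

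The Elk3 window was chr10:93311160-93311409 on the minus strand, the Ets2 window chr16:95702157-95702406 on the plus strand, and the Etv6 window chr6:134035450-134035699 on the plus strand. The core occurred 2 times in the Elk3 window, 1 time in that of Ets2 and 3 times in that of Etv6, and 93.4% of 32851 promoter windows of this length hold it at least 1 time. Erg had 3 annotated starts, whose windows held 0, 4 and 2 cores. The longer ETS motif CCGGAAG, which contains the core, was in none of these windows, against 6.91% of all windows. The SOX motif ACAAT, searched on both strands, was in 27.7% of all windows and in 1 window of Erg. A match of letters does not show that a factor binds there.

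The labels were checked against Kitl and the sort markers. In endothelium, Kitl was counted 1250 and 923 times in wild type but 6 and 2 times in Sl/Sl. Wild type clusters gave 110 and 0 counts of it and Sl/Sl clusters 1 and 3, so wild type clusters library 2 cannot be told from an Sl/Sl library by this gene. Kit, the receptor, was at 46.2 to 78.8 RPKM in clusters and 11.6 to 16.0 in endothelium, where RPKM is the count divided by exon length and by the library's total count on genes. Ptprc, which encodes CD45, was at 19.1 to 54.9 RPKM in clusters and 0.101 to 0.220 in endothelium.

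Cdh5, the gene of VE-Cadherin by which both cell types were sorted, was at 107 to 161 RPKM in endothelium but varied 19.2 times among the cluster libraries, at 59.0, 3.08, 38.0 and 12.3 RPKM for wild type clusters 1 and 2 and Sl/Sl clusters 1 and 2. The wild type clusters library 2 stood apart, with the least Cdh5 and the least RNA of each SoxF gene of all 8 libraries. Log2 fold changes between the cell types are therefore also given without it.

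Between endothelium and clusters, over both genotypes, 6 of the 9 genes differed. Sox7, Sox17, Ets1, Ets2 and Elk3 were higher in endothelium, by 2.39 to 7.65-fold, and Etv6 was 1.85-fold lower. Sox18, Erg and Fli1 were not called. The median log2 fold change of the 9 genes was 1.57, against -0.067 over all genes tested. The 9 genes were chosen as factors of endothelium, with earlier results of these data known, so the medians are no test of the set. Of all genes tested, 8.48% were called higher and 8.12% lower in endothelium at an adjusted p under 0.1 (edgeR quasi-likelihood test, Benjamini-Hochberg adjustment over all genes). In bulk libraries, fewer cells that express a gene and less RNA of it per cell cannot be told apart.

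The SoxF genes were abundant in every endothelium library and ranged widely among clusters. Sox18 was at 48.3 and 1.08 RPKM in wild type clusters, at 76.8 and 14.5 in Sl/Sl clusters, at 180 and 152 in wild type endothelium and at 172 and 136 in Sl/Sl endothelium. Sox7 was at 20.4 and 0.756 RPKM in wild type clusters, at 41.0 and 7.53 in Sl/Sl clusters, at 80.5 and 65.3 in wild type endothelium and at 97.2 and 75.2 in Sl/Sl endothelium. Sox17 was the least abundant, at 4.79 and 0.214 RPKM in wild type clusters, at 4.42 and 1.42 in Sl/Sl clusters, at 22.3 and 10.9 in wild type endothelium and at 25.9 and 16.9 in Sl/Sl endothelium. For each of the 3 genes every endothelium library lay above every cluster library, and replicate 2 was the lower in all 4 groups.

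Sox17 had the largest log2 fold change of the 9 genes between the cell types, 2.93 (SE 0.81), which is 7.65-fold (adjusted p = 0.0489). Sox7 was 5.42-fold higher in endothelium (log2 fold change 2.44, SE 0.82, adjusted p = 0.0937). Sox18 had a fold of like size, 5.23 (log2 fold change 2.39, SE 0.87), but an adjusted p of 0.121, so it was not called. Without wild type clusters library 2, all 3 were called, with smaller log2 fold changes of 1.93 for Sox7, 2.43 for Sox17 and 1.87 for Sox18 (adjusted p = 0.0409, 0.0216 and 0.0438). Without wild type clusters library 1 they were larger, at 4.30, 4.66 and 4.6 for Sox7, Sox17 and Sox18, and without Sl/Sl clusters library 1 they were at 3.31, 3.48 and 3.24, with all 3 called in both cases. The size of the SoxF difference thus rested on which cluster libraries were used. Without Sl/Sl clusters library 2 none of the 3 was called (adjusted p = 0.152, 0.101 and 0.208), and Sox7 was also not called without wild type endothelium 1, wild type endothelium 2 or Sl/Sl endothelium 1 (adjusted p = 0.102 to 0.117).

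**Figure D1:**
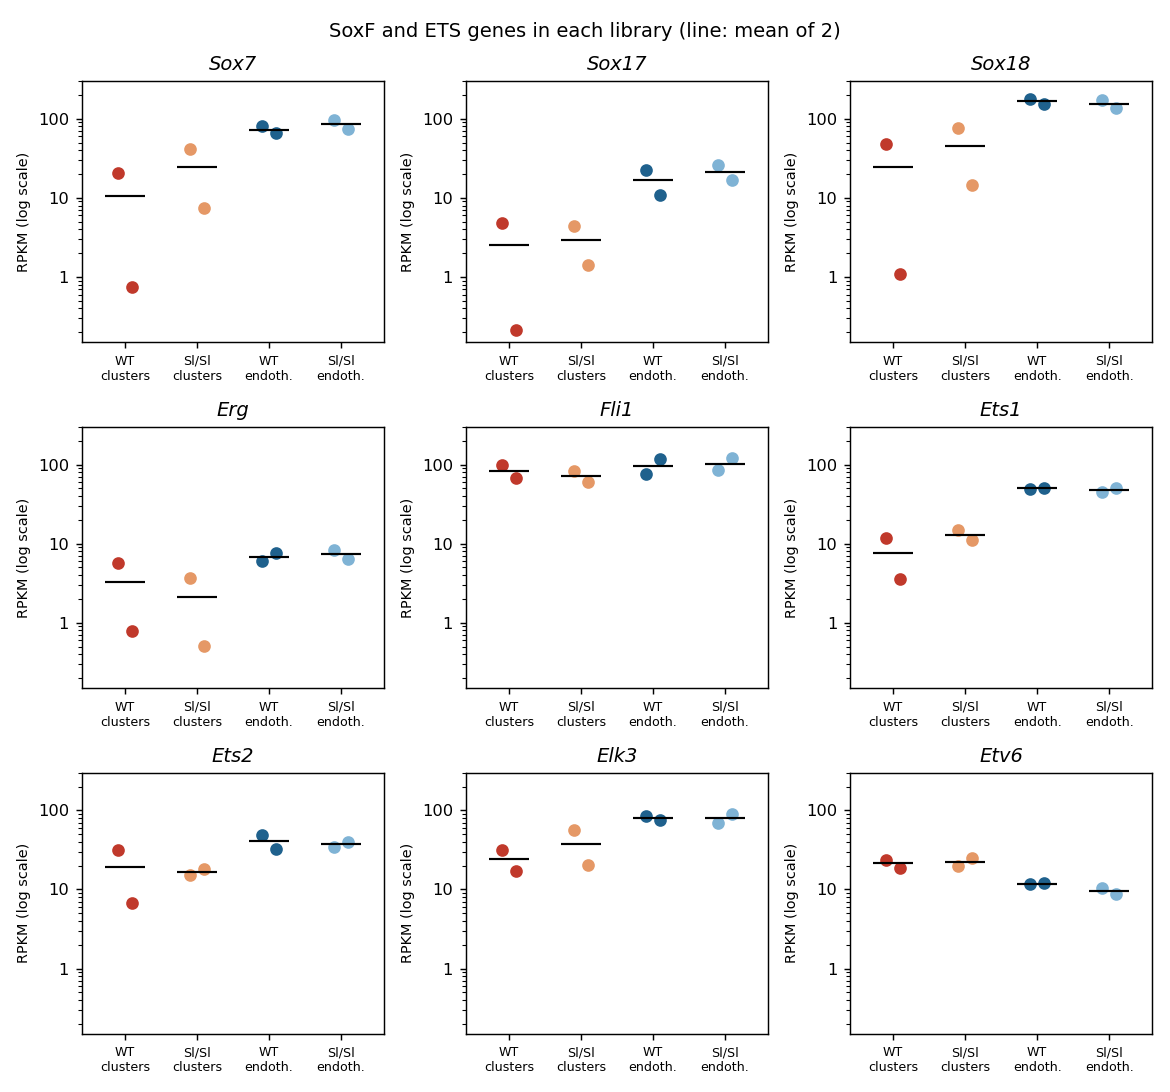
Level of each of the 9 genes in each library, as RPKM on a shared log axis, in wild type and Sl/Sl clusters and endothelium (points, single libraries; lines, mean of 2). The endothelium libraries lie close together, the SoxF genes and Erg vary by 11.4 times or more among clusters, and Etv6 is the gene that is higher in every cluster library.

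The proportions among the SoxF genes were more even than their levels. Of the summed SoxF RPKM, Sox18 made up 52.7% to 65.7% in the cluster libraries and 58.2% to 66.6% in endothelium, although that sum ran from 2.05 to 122 RPKM in clusters and from 228 to 295 in endothelium. Sox7 made up 27.8% to 36.8% in clusters and 28.5% to 33.0% in endothelium, and Sox17 3.62% to 10.4% and 4.78% to 8.79%. The cluster shares of 52.7% for Sox18, 36.8% for Sox7 and 10.4% for Sox17 were those of wild type clusters 2. They rest on 22, 31 and 11 counts. The log2 ratio of Sox7 to Sox18 within a library differed between the cell types by -0.11 (endothelium minus clusters, 4 libraries each; exact two-sided permutation p = 0.657, adjusted p = 0.821 over 5 ratios). The ratio of Sox17 to Sox18 differed by 0.15 (exact permutation p = 0.829, adjusted p = 0.829) and that of Sox17 to Sox7 by 0.26 (exact permutation p = 0.571, adjusted p = 0.821). The 5 ratios were chosen after their values were seen, and a p that misses the threshold does not show that the proportions were equal.

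Ets1 was the most clearly separated of the ETS genes. It was at 11.8 and 3.56 RPKM in wild type clusters, at 14.7 and 10.99 in Sl/Sl clusters, at 49.6 and 51.2 in wild type endothelium and at 44.7 and 50.7 in Sl/Sl endothelium. The lowest endothelium library had over 3 times the level of the highest cluster library, and the 4 endothelium libraries differed among themselves by 1.15 times at most. Ets1 was 5.43-fold higher in endothelium (log2 fold change 2.44, SE 0.35, adjusted p = 0.00307).

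Elk3 was the most abundant of the called ETS genes in endothelium. It was at 31.7 and 17.0 RPKM in wild type clusters, at 55.8 and 20.2 in Sl/Sl clusters, at 85.1 and 75.7 in wild type endothelium and at 70.01 and 91.3 in Sl/Sl endothelium. Every endothelium library lay above every cluster library, and Elk3 was 2.89-fold higher (log2 fold change 1.53, SE 0.34, adjusted p = 0.0212). Ets1 and Elk3 were called when any 1 of the 8 libraries was left out, and without wild type clusters library 2 their log2 fold changes were 2.11 and 1.32.

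Ets2 was at 31.8 and 6.67 RPKM in wild type clusters, at 15.2 and 17.9 in Sl/Sl clusters, at 48.5 and 32.4 in wild type endothelium and at 34.5 and 40.0 in Sl/Sl endothelium. The groups did not overlap, but the highest cluster library, wild type clusters 1, nearly reached the lowest endothelium library. Ets2 was 2.39-fold higher in endothelium (log2 fold change 1.26, SE 0.42, adjusted p = 0.0908), and it was not called without any 1 of Sl/Sl clusters 1 or 2, Sl/Sl endothelium 1 or 2, or wild type endothelium 1 (adjusted p = 0.113 to 0.173). Its log2 fold change was 0.87 without wild type clusters library 2 (adjusted p = 0.099) and 1.99 without library 1 of that group.

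Erg was the least abundant ETS gene of the set, at 5.75 and 0.791 RPKM in wild type clusters, at 3.69 and 0.504 in Sl/Sl clusters, at 6.05 and 7.70 in wild type endothelium and at 8.35 and 6.32 in Sl/Sl endothelium. In both cluster groups replicate 2 was far below replicate 1, with 22 and 15 counts. The endothelium libraries lay above the cluster libraries by a narrow margin. The fold of 2.97 was not called (log2 fold change 1.57, 95% interval -0.49 to 3.63, adjusted p = 0.316), a range that takes in both no difference and a difference as large as that of Sox17. Without wild type clusters library 2 the log2 fold change was 1.13, and without wild type clusters 1 or Sl/Sl clusters 1 it was 2.56 or 2.62, with no call in any of the 3 cases.

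Fli1 had the highest level of the 6 ETS genes of the set in every library but wild type endothelium 1, where Elk3 was higher, at 97.7 and 67.3 RPKM in wild type clusters, at 81.8 and 60.4 in Sl/Sl clusters, at 75.6 and 117 in wild type endothelium and at 84.8 and 120 in Sl/Sl endothelium. It was the member whose cell types overlapped, and wild type endothelium library 1 lay below 2 of the cluster libraries. The log2 fold change was 0.51 (95% interval -0.03 to 1.04, adjusted p = 0.208), so a rise of more than 1.04 on the log2 scale lay outside the interval, and it was 0.37 without wild type clusters library 2. Fli1 was at 42.8% to 59.0% of the summed RPKM of the 6 ETS genes in clusters and at 27.3% to 39.5% in endothelium.

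Etv6 ran the other way. It was at 23.8 and 18.9 RPKM in wild type clusters, at 19.6 and 25.0 in Sl/Sl clusters, at 11.6 and 12.1 in wild type endothelium and at 10.5 and 8.89 in Sl/Sl endothelium. Every endothelium library lay below every cluster library, and the cluster libraries varied by 1.32 times, the least of the 9 genes. Etv6 fell by 0.89 on the log2 scale in endothelium (SE 0.23, adjusted p = 0.0389), and by 0.98 without wild type clusters library 2 (adjusted p = 0.061). It was not called when any 1 of wild type clusters 1, wild type endothelium 1, Sl/Sl clusters 2 or Sl/Sl endothelium 2 was left out, with adjusted p-values of 0.106 to 0.147. Its part of the summed ETS RPKM was 10.2% to 18.5% in clusters and 2.81% to 4.204% in endothelium.

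By the plain overlap of RPKM between the 4 endothelium and 4 cluster libraries, 7 of the 9 genes lay wholly higher in endothelium and Etv6 wholly lower. Over all genes tested, 8.12% lay wholly higher and 11.8% wholly lower. The order of the 4 groups by mean RPKM had both endothelium groups above both cluster groups for all genes but Etv6. The neighbors in that order which belong to the same cell type overlapped for every gene, except that Etv6 was 1.22 times higher in wild type than in Sl/Sl endothelium without overlap.

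**Figure D2:**
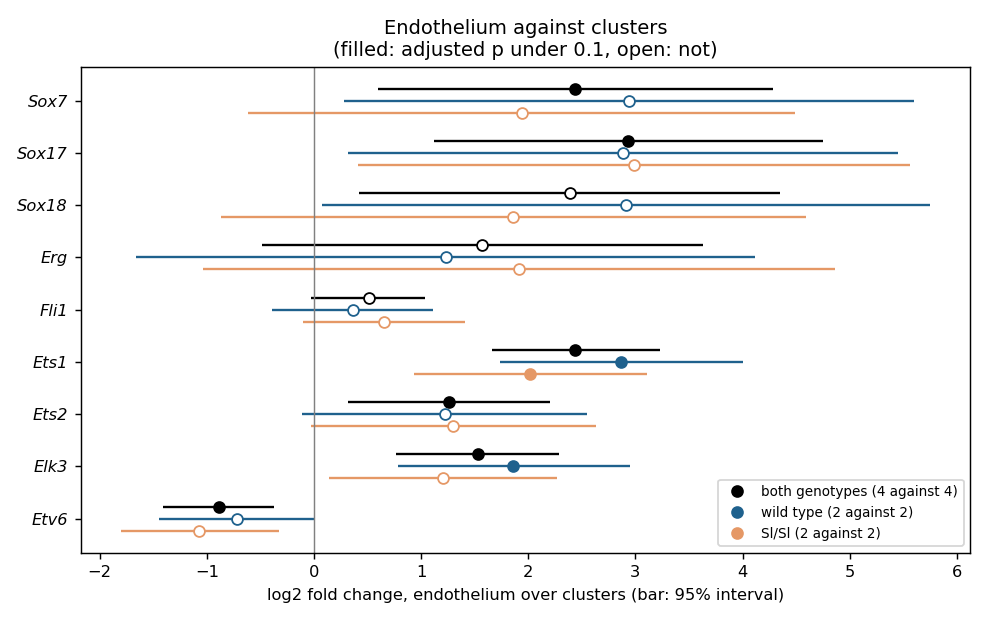
Log2 fold change of each gene, endothelium over clusters, with its 95% interval, for both genotypes together and for each alone (filled points, adjusted p under 0.1; open points, not called). The estimates of both genotypes lie on the same side of 0 for all 9 genes, and the intervals of the SoxF genes and Erg are the widest.

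Within single genotypes fewer genes were called. In wild type, 2 of the 9 genes were called higher in endothelium, against 4.56% of all genes tested. Ets1 had a log2 fold change of 2.87 (SE 0.50, adjusted p = 0.0157) and Elk3 of 1.86 (SE 0.48, adjusted p = 0.0663). Sox7, Sox17 and Sox18 had log2 fold changes of 2.94, 2.88 and 2.91, with adjusted p-values of 0.209, 0.205 and 0.244. Etv6 was at -0.72 (adjusted p = 0.266). Without wild type clusters library 1, 6 genes were called, namely these 3 SoxF genes, Ets1, Ets2 and Elk3, and Ets1 alone was called without wild type clusters 2 or either wild type endothelium library.

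In Sl/Sl, Ets1 alone was called, at a log2 fold change of 2.02 (SE 0.48, adjusted p = 0.0921), against 0.985% of all genes tested called higher. Sox17 was at 2.99 (adjusted p = 0.278), Sox7 at 1.94 (adjusted p = 0.467) and Sox18 at 1.86 (adjusted p = 0.511). Elk3 was at 1.2 (adjusted p = 0.292) and Etv6 at -1.07 (adjusted p = 0.174). Ets1 was not called without any 1 of the 4 Sl/Sl libraries, though Elk3 was called without Sl/Sl clusters 1 and Sox17 was called beside Ets1 without either wild type cluster library. The 2 genotypes were compared by the interaction term, which called none of the 9 genes. The share called of all genes tested was also 0% there in the main edgeR fit, although 736 genes had an unadjusted p under 0.05. Without a filter on low counts edgeR called 179 genes, and DESeq2 called 175, none of them a member. The smallest unadjusted p of a member was that of Ets1, 0.231, with a genotype difference that was larger in clusters by 0.85 on the log2 scale (SE 0.66).

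Between Sl/Sl and wild type clusters, 0 of the 9 genes were called, and the smallest unadjusted p of a member was 0.128, of Ets1. The share called among all genes tested was 0% in the main edgeR fit, where 587 genes had an unadjusted p under 0.05. The smallest adjusted p of that edgeR test was 0.109, close to the threshold. Without a filter on low counts edgeR called 253 genes, Sox7 among them. With at least 10 counts in every library it called 9 and with the replicate block 8, none of them a member. DESeq2 called 175 genes, none of them a member. The intervals were wide. Sox7 had a log2 fold change of 1.27 (95% interval -1.25 to 3.79), Sox18 of 0.96 (-1.72 to 3.64) and Sox17 of 0.29 (-2.13 to 2.70), and Erg was at -0.57 (-3.44 to 2.29).

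The other ETS genes were bounded more closely in clusters. Etv6 was at 0.08 (-0.65 to 0.80), Fli1 at -0.19 (-0.94 to 0.56), Ets2 at -0.18 (-1.49 to 1.13), Elk3 at 0.68 (-0.37 to 1.74) and Ets1 at 0.79 (-0.28 to 1.85). No member lay apart between the Sl/Sl and the wild type cluster libraries, while 32.8% of all genes tested did.

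Single cluster libraries decided the direction of the SoxF genes. Without wild type clusters library 1, Sox7 and Sox18 were called higher in Sl/Sl clusters, with log2 fold changes of 5.0 and 5.39 (adjusted p = 0.0717 and 0.0592), where wild type clusters are then the 1 library that stood apart. Without wild type clusters library 2, Sox7 was at 0.32, Sox18 at -0.01 and Sox17 at -0.65, and none was called. Without Sl/Sl clusters library 1 they were at -0.48, -0.75 and -0.80, again with no call.

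**Figure D3:**
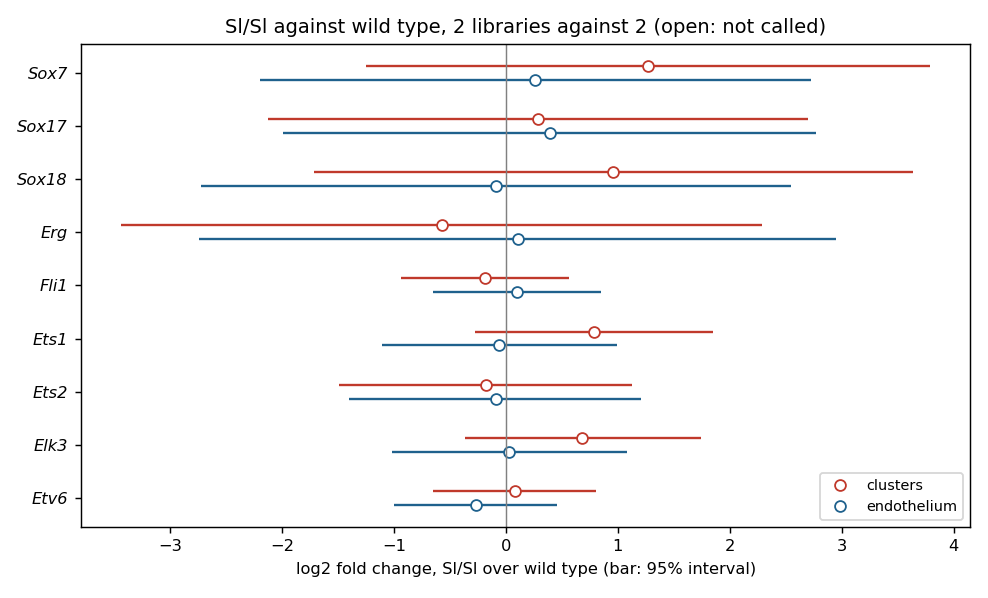
Log2 fold change of each gene, Sl/Sl over wild type, with its 95% interval, in clusters and in endothelium (2 libraries against 2). Every interval takes in 0, those of the SoxF genes and Erg are the widest, and those of Fli1 and Etv6 stay within 1 of 0.

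In endothelium, where Kitl itself was lost from the Sl/Sl libraries, 0 of the 9 genes were called either. No other gene was called in the main edgeR fit of all 8 libraries, and Kitl was no exception. In that fit 0% of all genes tested were called, with 580 at an unadjusted p under 0.05. Even a near complete loss of RNA thus went without a call in that fit. A missing call there therefore does not show that a member was unchanged. Without a filter on low counts edgeR called 65 genes (0.381%), none of them a member. Fitted to the 4 libraries compared it called 2 (0.0169%), again no member. DESeq2 called 178 genes, none of them a member. The median log2 fold change of the 9 genes was 0.03. The closest bounds were on Fli1, at 0.10 (95% interval -0.65 to 0.85), and on Etv6, at -0.27 (-1.0 to 0.46). Ets1 was at -0.06 (-1.11 to 0.99) and Elk3 at 0.03 (-1.02 to 1.08), so differences larger than about 2-fold lay outside these intervals. Sox17 was at 0.39 (-1.99 to 2.77), Sox7 at 0.26 (-2.20 to 2.73), Sox18 at -0.09 (-2.73 to 2.55), Erg at 0.11 (-2.74 to 2.95) and Ets2 at -0.09 (-1.40 to 1.21). Etv6 was the 1 member whose Sl/Sl and wild type endothelium libraries did not overlap, and 28.3% of all genes tested did not overlap.

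The neighboring ETS genes were set against each other within each library. Ets1 was at 0.120 and 0.0528 of the level of Fli1 in wild type clusters, at 0.180 and 0.182 in Sl/Sl clusters, at 0.657 and 0.438 in wild type endothelium and at 0.527 and 0.423 in Sl/Sl endothelium. All endothelium ratios lay above all cluster ratios, and the log2 ratio was 2.07 higher in endothelium. The exact two-sided permutation p of 0.0286 is the smallest that 4 against 4 libraries can give, and adjusted over the 5 ratios it was 0.143. The difference was 2.75 in wild type and 1.38 in Sl/Sl, and it stayed between 1.67 and 2.27 when any 1 library was left out.

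Ets2 was at 5.53 and 8.43 times the level of Erg in wild type clusters, at 4.13 and 35.6 in Sl/Sl clusters, at 8.01 and 4.21 in wild type endothelium and at 4.13 and 6.34 in Sl/Sl endothelium. The ratio of 35.6, in Sl/Sl clusters 2, rests on 15 counts of Erg. The cell types overlapped, and the log2 ratio differed by -0.74 (exact permutation p = 0.457, adjusted p = 0.821). Without Sl/Sl clusters 2 the difference was -0.08.

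**Figure D4:**
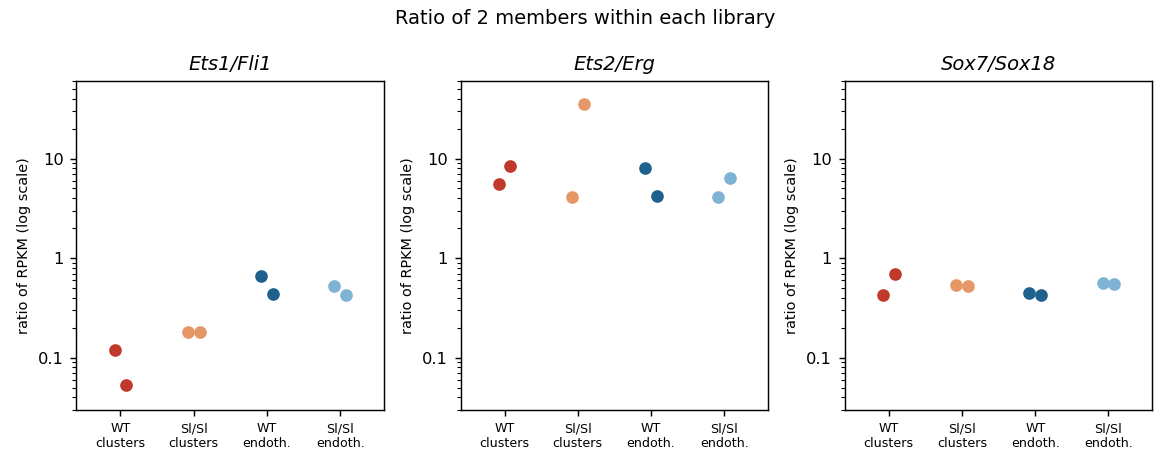
Ratio of the RPKM of 2 genes within each library, on a shared log axis, for the neighbors Ets1 and Fli1, the neighbors Ets2 and Erg, and Sox7 and Sox18. The ratio of Ets1 to Fli1 is 0.423 to 0.657 in endothelium and 0.0528 to 0.182 in clusters, and the other ratios overlap between the cell types.

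The profiles over the 8 libraries were compared with those of 9338 other genes of mean CPM 10 or more, as the root mean square difference of centered log2 CPM. Nearest to Sox18 were Gm14207 (0.243), Npr1 (0.306) and Shroom2 (0.341), and nearest to Sox7 were Gm14207 (0.273), Shroom2 (0.281) and Cd38 (0.342). Sox7 and Sox18 were themselves closer to each other, at 0.218, than either was to any of these genes. Sox17 was nearest to the netrin receptor gene Unc5b (0.281), Lpar4 (0.327) and Cdh5 (0.345).

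Ets1 was nearest to Pon3 (0.162), to Nrp1, a co-receptor for VEGF (0.240), and to Efnb2, the arterial ephrin ligand (0.242). Elk3 was nearest to Laptm4b (0.171), the glucose transporter gene Slc2a1 (0.219) and Arpc3 (0.237), and Ets2 to Sec24b (0.194), Als2cl (0.198) and Sfxn4 (0.253). Erg was nearest to Asah2 (0.229), Tgm2 (0.291) and Podxl (0.390), Fli1 to Srrm2 (0.105), Ube2n (0.150) and Birc6 (0.159), and Etv6 to Map4k1 (0.147), Clybl (0.166) and Abce1 (0.173). Among the members, each ETS gene but Etv6 was nearest to Elk3 or, for Elk3, to Ets2. Etv6 was nearest to Fli1, at 0.775. These are likenesses over 8 libraries that share their cell types, and they carry no test.

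The rest of both families was described beside the 9 genes. Over all genes tested, the shares called were 8.48% higher and 8.12% lower in endothelium. Of 20 other ETS genes, 14 passed the filter, 0 were called higher and 2 lower in endothelium, with a median log2 fold change of 0.29. Spi1, which encodes the myeloid and lymphoid factor PU.1, was 26.2-fold lower in endothelium (log2 fold change -4.71, SE 0.58, adjusted p = 0.00154), and Elf1 was 2.78-fold lower (log2 fold change -1.48, adjusted p = 0.00812). Spi1 was at 29.7 to 129 RPKM in clusters and 0.504 to 6.22 in endothelium. Of 16 other Sox genes, 10 passed the filter and 2 were called higher in endothelium, Sox13 (10-fold, adjusted p = 0.0426) and Sox11 (3.79-fold, adjusted p = 0.0406).

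Blood factors known to bind beside Erg and Fli1 were lower in endothelium or not called. Runx1, which drives the passage from endothelium to blood, was 65.9-fold lower (log2 fold change -6.04, SE 0.30, adjusted p = 5.96e-05), and Gata2 was 1.91-fold lower (adjusted p = 0.0618). Tal1, Lyl1 and Lmo2 were not called, with log2 fold changes of -0.38, -0.26 and -0.22.

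Endothelial genes known as targets of SoxF or ETS factors were nearly all higher in endothelium. Of 23 such genes, 21 were called higher and 0 lower, with a median log2 fold change of 2.45. Of all genes tested, 8.48% were called higher. Flt4, the VEGF-C receptor gene, was 14.2-fold higher (log2 fold change 3.82, SE 0.96), Dll4, the arterial Notch ligand gene, 13.1-fold, Acvrl1, a BMP receptor gene, 12.7-fold, and Robo4 9.44-fold, with adjusted p-values of 0.0355, 0.0163, 0.00462 and 0.0046. Vcam1 and Hhex were not called, at log2 fold changes of 0.54 and -0.11. The list is made of endothelial genes, and part of it is also in the list of endothelial markers, of which all 10 were called higher. The calls therefore do not show that SoxF or ETS factors act on these genes here. Between the genotypes none was called in either cell type, and the median over the list, as log2 fold change, was 0.99 in clusters and 0.12 in endothelium, beside medians of 0.96 and 0.26 for the 3 SoxF genes. The endothelial markers had medians of 1.08 in clusters, with 9 of 10 above 0, and 0.10 in endothelium. In clusters all 3 SoxF genes were below 0 without Sl/Sl clusters library 1, as given above.

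Of 12 other transcription factors of endothelium, 6 were called higher and 1 lower in endothelium, against 8.48% and 8.12% of all genes tested. Epas1 was 8.49-fold higher (adjusted p = 0.0938), Klf2, a factor induced by blood flow, 4.13-fold (adjusted p = 0.0167), Klf4 3.20-fold (adjusted p = 0.0537) and Foxc1 3.19-fold (adjusted p = 0.0892). Mef2c was the member of this list that was called lower, by 1.17 on the log2 scale (adjusted p = 0.00464).

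Cell type markers moved with these results. The 10 endothelial markers summed to 608, 250, 1640 and 403 RPKM in wild type clusters 1 and 2 and Sl/Sl clusters 1 and 2, and to 3505 to 3908 in endothelium, and all 10 were called higher in endothelium. The SoxF sum followed the same order over the cluster libraries, at 73.6, 2.05, 122 and 23.4 RPKM. Per RPKM of Cdh5, Sox18 was at 0.352 to 2.02 in clusters and 1.03 to 1.42 in endothelium, and Sox17 at 0.0695 to 0.116 and 0.102 to 0.173, so on this scale the cell types overlapped for both. Sox7 (0.246 to 1.08 and 0.500 to 0.651), Erg (0.0410 to 0.257 and 0.0376 to 0.0719), Ets1 (0.199 to 1.16 and 0.299 to 0.478) and Elk3 (0.536 to 5.51 and 0.469 to 0.707) overlapped as well. Cdh5 was itself 5.4-fold higher in endothelium (edgeR adjusted p = 0.0618), so a gene with a smaller rise tends to fall on this scale. The highest cluster ratio of each ETS gene was in wild type clusters 2, where Cdh5 was at 3.08 RPKM. Ets2, called higher in endothelium by its level, lay wholly lower there per RPKM of Cdh5, at 0.401 to 2.17 in clusters and 0.231 to 0.303 in endothelium. Fli1 also lay wholly lower in endothelium on this scale, at 1.65 to 21.9 and 0.469 to 1.09. Etv6 was at 0.402 to 6.14 per RPKM of Cdh5 in clusters and 0.0671 to 0.113 in endothelium.

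The 15 hematopoietic markers summed to 600 to 1150 RPKM in clusters and 92.9 to 121 in endothelium, and 14 of them were called lower in endothelium. The 12 macrophage markers summed to 220 to 789 RPKM in clusters and 5.63 to 29.7 in endothelium, with 9 called lower, and the cluster gate did not leave out CD45+ cells. No endothelial and no hematopoietic marker was at 0 counts in any library. Of the 12 macrophage markers, 1 to 8 were at 0 counts in each endothelium library and 0 or 1 in each cluster library, and Cx3cr1 was at 0 in 3 of the endothelium libraries. The 12 erythroid markers summed to 40.3 to 415 RPKM in clusters and 47.1 to 144 in endothelium, and none of the 6 tested was called. Of the 12, 5 were at 0 counts in all libraries, namely Hba-a1, Hba-a2, Hbb-b1, Hbb-b2 and Slc4a1, so the sums rest on the others. In Sl/Sl clusters 1, where the sum was 415 RPKM, Hbb-y alone was at 364. The part of endothelial, blood and macrophage cells in the levels of the 9 genes was not tested.

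Markers of other tissues had unequal levels in the cluster genotypes, and the mesenchymal markers also varied among the endothelium libraries. All 9 muscle markers tested had a log2 fold change above 0 for Sl/Sl over wild type clusters, with a median of 5.21, and all 12 mesenchymal markers did, with a median of 1.38, but none was called. The muscle markers summed to 11.2 and 35.7 RPKM in wild type clusters and 265 and 557 in Sl/Sl clusters. Actc1 alone was at 245 and 251 RPKM of these Sl/Sl sums. Acta1, Myl1 and Myod1 were at 1, 0 and 0 counts in Sl/Sl clusters 1 but 3078, 1190 and 81 in Sl/Sl clusters 2. Cnn1 was at 42 and 38 counts in the same libraries. The mesenchymal markers summed to 341 and 427 RPKM in wild type clusters but to 178 and 1992 in Sl/Sl clusters, so Sl/Sl clusters library 1 had the lowest sum of the 4 and library 2 the highest. In endothelium the mesenchymal markers summed to 806.9 and 128.8 RPKM in wild type and to 267.9 and 520.9 in Sl/Sl. The muscle markers summed to 28.14 and 53.9 RPKM in wild type endothelium and to 23.04 and 43.83 in Sl/Sl endothelium. Uneven levels of mesenchymal markers were thus not confined to clusters. The part of both lists in the levels and the genotype values of the 9 genes was not tested in either cell type.

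**Figure D5:**
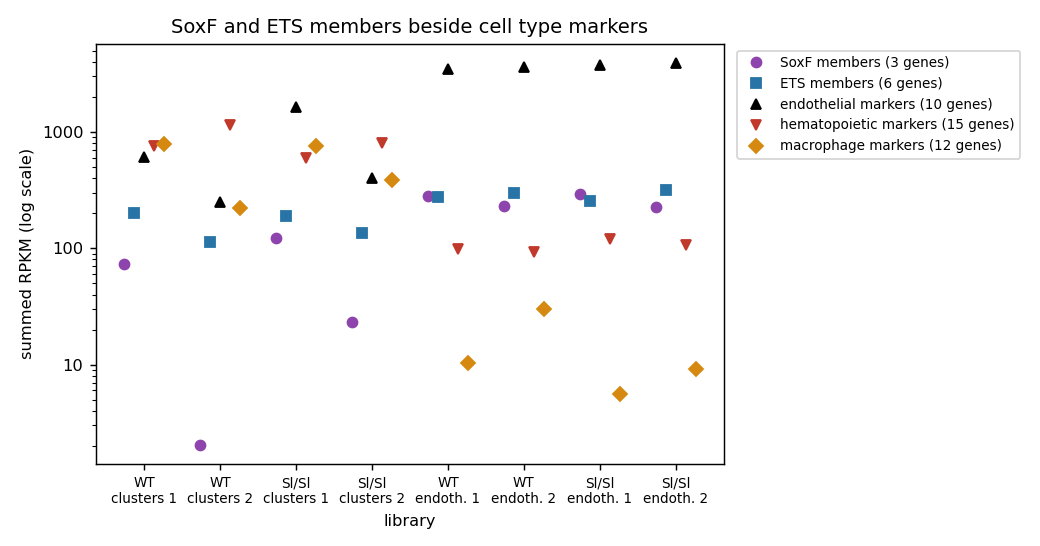
Summed RPKM of the 3 SoxF genes, the 6 ETS genes and 3 lists of cell type markers in each library, on a log axis. In clusters the SoxF sum runs from 2.05 to 122 and is highest and lowest in the same libraries as the endothelial markers, while the ETS sum stays between 114 and 203. In endothelium both sums lie between 228 and 317.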

How the data were processed

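SMARTSEQ2 libraries without molecular identifiers were made from 100 sorted cells each. The authors aligned read pairs to mm9 with STAR 2.4.2a, merged lanes, and used featureCounts (Subread 1.4.5) to assign reads to genes. The deposited table gives unnormalized counts, the exons and the exon length of every gene. The gene annotation, strand setting and treatment of multiply mapped reads are not given in the sources used here, nor is it given which of the 2 sorting experiments each sample came from.

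Groups came from the sample labels. Counts were tested with edgeR 4.0.16 (R 4.3.3) by the quasi-likelihood test, with TMM factors, filterByExpr on the 4 groups and a fit of all 8 libraries with 1 mean per group. P-values were adjusted by Benjamini-Hochberg over 13908 genes and called under 0.1. The common dispersion was 0.667, with 4 residual and 5.24 prior degrees of freedom. RPKM used exon lengths and total counts on genes (8933236 to 13428214, median 11942635), and CPM used TMM-scaled totals with a prior count of 2 on the log2 scale. Intervals are 95% intervals of the fit. Within-library ratios were tested by exact permutation, which reaches 0.0286 at 4 against 4 libraries and 0.333 at 2 against 2. Alternatives were DESeq2 1.42.0, RLE factors, other filters, a threshold of 0.05, a replicate block and leaving out each library. Comparisons between single groups were also fitted with edgeR on the 4 libraries compared. The edgeR test between the cell types was tried on counts simulated with the dispersions fitted to these data. The other comparisons and tests were not tried on simulated data.

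The members and gene lists were chosen with earlier results of these data known. Named genes were the members, sort markers and Kitl, up to 4 called genes of largest fold per list, and the 3 genes nearest each member in profile. Mef2c, Tal1, Lyl1, Lmo2, Vcam1 and Hhex fall outside this rule and were named after their values were seen.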

Additional observations from a re-analysis of the deposited data

How the results depend on the processing

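Between the cell types with both genotypes, 6 members were called. DESeq2 and RLE factors called the same 6, and Sox18 was the seventh without a filter, with at least 10 counts in every library, or with the replicate block. At a threshold of 0.05, Sox17, Ets1, Elk3 and Etv6 were called. Leaving out each library gave 2 to 7 calls. The lowest, 2, was without Sl/Sl clusters 2, and 3 were called without wild type endothelium 1. In wild type the 2 calls became 3 with DESeq2 (Sox17 added, adjusted p = 0.0356), 6 without a filter, 1 at 0.05 and 5 with the replicate block, and 1 to 6 when each library was left out, with 6 without wild type clusters 1. In Sl/Sl the 1 call became 3 with DESeq2, 6 without a filter and 0 at 0.05, and 0 to 2 when each library was left out. For Sl/Sl against wild type clusters the 0 calls became 1 (Sox7, adjusted p = 0.0413) without a filter, and 0 to 2 when each library was left out. In endothelium and for the interaction no alternative called a member. Over all genes, edgeR called 2310 between the cell types, 1146 in wild type and 393 in Sl/Sl, and DESeq2 called 3614, 2613 and 1631. The cause of these changes was not tested.

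Whether the replicate numbers pair the samples is not known. Deviations of same-numbered samples correlated at -0.111 to 0.157 over the pairs of groups. With 2 libraries a group, these values cannot show that pairing is absent, and the 3 SoxF genes were lower in replicate 2 of all 4 groups. With the replicate block the adjusted p of Sox18 over both genotypes was 0.0303, and in wild type those of Sox7, Sox17 and Sox18 were 0.057, 0.0553 and 0.0826. It turned log2 fold changes of Ets2 in clusters to 0.02, of Erg in endothelium to -0.07, and of the interaction for Sox17 to 0.24 and for Ets2 to 0.04.

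Other changes of sign came from leaving out each library in turn, and are given as ranges of the log2 fold change. Wild type endothelium against clusters gave -0.02 to 0.66 for Fli1. Sl/Sl against wild type clusters gave -0.48 to 5.0 for Sox7, -0.80 to 3.75 for Sox17, -0.75 to 5.39 for Sox18, -2.67 to 1.4 for Erg, -0.46 to 0.06 for Fli1, -0.90 to 1.29 for Ets2, -0.28 to 1.26 for Elk3 and -0.07 to 0.22 for Etv6. In endothelium the ranges were 0.00 to 0.96 for Sox17, -0.24 to 0.05 for Sox18, -0.09 to 0.34 for Erg, -0.20 to 0.50 for Fli1, -0.18 to 0.04 for Ets1, -0.32 to 0.20 for Ets2 and -0.20 to 0.22 for Elk3. For the interaction they were -0.74 to 4.74 for Sox7, -1.19 to 3.36 for Sox17, -0.66 to 5.48 for Sox18, -2.78 to 1.3 for Erg, -0.67 to 0.03 for Fli1, -0.80 to 1.38 for Ets2 and -0.30 to 1.23 for Elk3. A library left alone in its group was assumed to vary like the others. The ratios of members and their leave-one-out values were chosen after seeing the data. The genotype intervals were widest for the SoxF genes and Erg. Wild type clusters 2, with 11 counts of Sox17, had 12558926 counts in all, more than the 10752465 of wild type clusters 1, which had 211.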
